A study of Mus musculus with 8 samples.

Results

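The proteasome genes of neonatal mouse brain were followed through 4 kinds of ribosome footprint library. The members were the protein-coding genes named Psma, Psmb, Psmc or Psmd followed by a number, each represented by its coding transcript with the highest library-scaled read total. This gave 39 genes of the 21874 protein-coding genes listed. Of these, 19 encode subunits of the core particle, 17 encode subunits of the regulatory particle and 3, Psmd5, Psmd9 and Psmd10, encode chaperones that assemble its base. The libraries were 3 anti-SMN and 1 anti-IgG immunoprecipitates of nuclease-treated ribosomes from Smn+/-; SMN2tg/0 brains, and 2 RiboLace and 2 polysome libraries from Smn-/-; SMN2tg/0 brains. All brains were taken at postnatal day 5 from congenic FVB mice of the Taiwanese spinal muscular atrophy model, in which every group carried the human SMN2 transgene and the Smn+/- littermates were phenotypically normal. RiboLace retrieves ribosomes with a puromycin analogue to enrich for active ones, whereas the polysome libraries came from pooled sucrose gradient fractions. Smn1, the deleted gene, had 22, 13 and 34 reads in the SMN immunoprecipitates, 6 in IgG, 2 and 0 in RiboLace and 51 and 77 in polysomes, so reads were listed for it in Smn-/- polysomes. In CPM (counts per 1000000 coding-gene reads) this was 159, 97.5 and 143 in the SMN immunoprecipitates, 29.0 in IgG, 41.8 and 0 in RiboLace and 30.7 and 33.5 in polysomes. The Smn+/- SMN immunoprecipitates were thus above every other library, and the Smn+/- IgG library was close to the Smn-/- polysomes.

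The proteasome degrades proteins tagged with ubiquitin. Its core particle is a barrel of alpha and beta rings: the alpha rings gate the entrance, and Psmb5, Psmb6 and Psmb7 carry the active sites of the constitutive beta rings. The regulatory particle caps the barrel, with a base whose 6 Psmc ATPases unfold substrates and a lid that holds the deubiquitinase Psmd14. Since each complete cap and barrel needs its subunits in fixed proportion, footprint levels of the subunits are of interest relative to one another as well as between libraries. Neurons depend on proteasomes for protein turnover at synapses and in axons.

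Depth set what could be seen. Reads on 1 transcript per coding gene came to 133295 to 237760 in the SMN immunoprecipitates, 206690 in IgG, 47846 and 39375 in RiboLace and 1661834 and 2295393 in polysomes. The 39 members together held 686, 606 and 1167 of these reads in the SMN immunoprecipitates, 936 in IgG, 256 and 197 in RiboLace and 10079 and 13597 in polysomes. Their share of all coding-gene reads was 0.481% ± 0.0226 in the SMN immunoprecipitates (SD, n = 3), 0.453% in the IgG library, 0.518% ± 0.0246 in RiboLace (SD, n = 2) and 0.599% ± 0.0100 in polysomes (SD, n = 2). The share was thus highest in both polysome libraries and did not overlap with any other group. Neuron markers, 6 genes that all had reads in every library, summed to 7509 to 8132 CPM in the SMN immunoprecipitates, 8017 in IgG, 9067 to 9635 in RiboLace and 4980 to 5433 in polysomes, the lowest. Tubb3 and Stmn2 made up most of that sum and were lowest in polysomes, which the other neuron markers were not. Map2 was higher in polysomes, at 1107 and 1128 CPM, than in the SMN immunoprecipitates, at 615 to 915 CPM. Rbfox3 was higher too, at 60.8 and 65.3 CPM against 22.5 to 43.4. Snap25 had 382 and 393 CPM in polysomes, against 210 to 383. Syn1, at 533 and 562 CPM in polysomes, was below the SMN immunoprecipitates, at 677 to 773, but above RiboLace replicate 1, at 418. Blood markers were highest in RiboLace, at 5267 to 6375 CPM, beside 1673 to 2288 in the SMN immunoprecipitates, 1679 in IgG and 1910 to 2589 in polysomes, with Alas2 at 0 in both RiboLace libraries. The part of these markers in the proteasome values was not tested. In whole-brain samples, fewer cells of a type and less RNA per cell cannot be told apart.

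The members were not listed on equal terms, which bears on every level below. The deposited counts are per transcript, the 39 genes have 176 listed transcripts, and only 9 members have a single one. The level used here is the footprint density, the reads on the chosen transcript per kilobase of coding length, scaled to 1000000 coding-gene reads. Over the 31 constitutive subunits (14 core, 17 regulatory), polysome density fell with the logarithm of the number of listed transcripts, with r = -0.80 across genes. Within the core the value was -0.79 over 14 genes, and within the regulatory particle it was -0.89 over 17. For the summed densities, the reads of all listed transcripts of a gene, coding or not, were divided by its longest coding length. They were scaled to 1000000 reads on all transcripts of coding genes, a total of 3347722 in polysome replicate 1, against 1661834 for 1 transcript per gene. The scales therefore differ, and a gene with 1 transcript has a lower summed value from the same reads. With summed reads, r was 0.15 over the same 31 genes, 0.38 within the core and 0.30 within the regulatory particle. Summing also narrowed the spread: the coefficient of variation over core genes was 43.1% with 1 transcript and 26.3% with all transcripts, and over regulatory genes 49.3% and 27.6%. The points share libraries and annotation, and genes are not independent replicates. Psmd11, with 15 listed transcripts, shows the effect. Its polysome densities on the chosen transcript were 33.7 and 40.2, beside a mean of 138 over the regulatory genes. On the summed scale it had 102 and 117, beside a regulatory mean of 152.

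**Figure D1:**
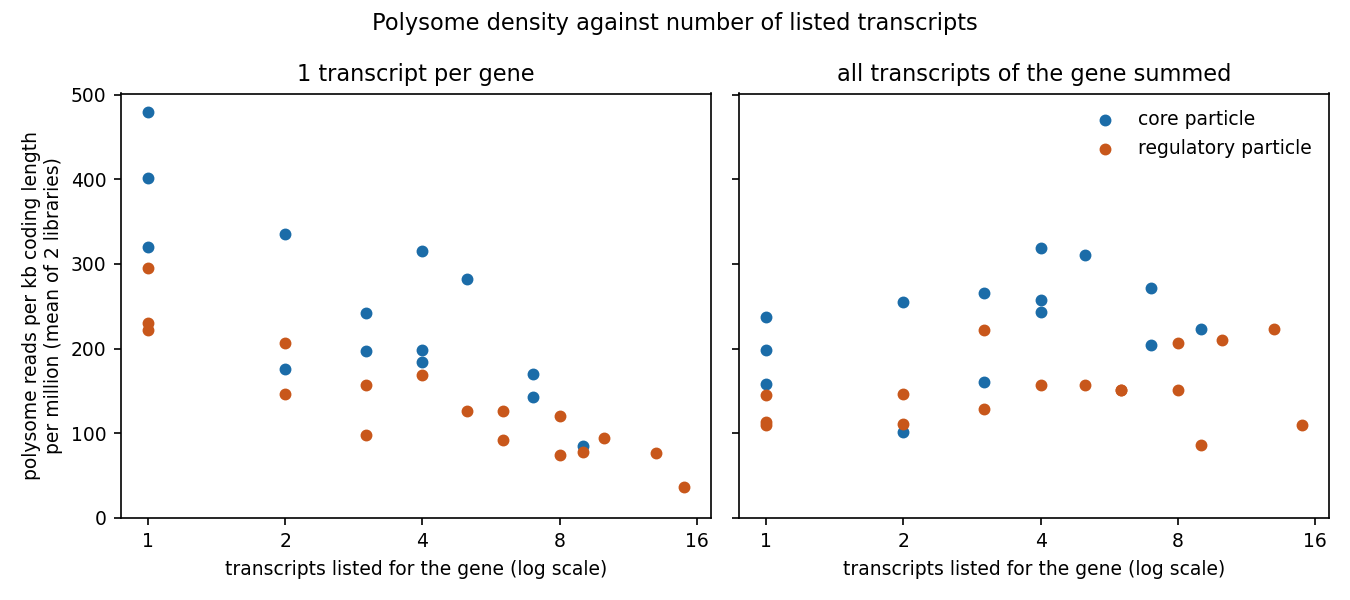
Polysome footprint density (scaled reads per kilobase of coding length, mean of 2 libraries) of 31 constitutive proteasome genes against the number of transcripts listed for each gene (log axis). With 1 transcript per gene (left) the points fall from left to right (r = -0.80), and with all transcripts summed (right) they do not (r = 0.15).

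The libraries also differed in how reads were spread over isoforms. For pairs of transcripts of a gene with the same coding length and 20 to 49 reads between them, counts drawn independently would give a chi-square near 1 per pair. The value was 0.329, 1.18 and 0.559 in SMN replicates 1, 2 and 3, 0.540 in IgG, 0.629 and 0.639 in RiboLace and 1.35 and 1.47 in polysomes. Pairs were therefore more alike than independent counts in 5 libraries, and not in SMN replicate 2 or in either polysome library. The number of pairs ran from 86 in RiboLace replicate 2 to 742 in polysome replicate 1, and a fixed read window takes different genes in libraries of unlike depth. Real differences in level between the isoforms of a pair would raise the value and were not measured. The share of the members' summed reads held by the chosen transcripts followed a similar split, with 40.5%, 53.8% and 40.3% in the SMN immunoprecipitates, 40.2% in IgG, 47.3% and 45.7% in RiboLace and 49.6% and 49.2% in polysomes. SMN replicate 2 stood apart from replicates 1 and 3 in both measures. The calls of SMN immunoprecipitates against polysomes are therefore also given without it, and for SMN against IgG the range over fits without 1 SMN library is given.

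Among the core subunits, the alpha ring genes ran from Psma2 at the top to Psma3 at the bottom in polysomes. Psma2, listed with 1 transcript, had densities of 267, 309 and 298 in the SMN immunoprecipitates, 268 in IgG, 356 and 216 in RiboLace and 411 and 392 in polysomes. Psma3, which has 9 listed transcripts, had 94.2, 48.8 and 115 in the SMN immunoprecipitates, 132 in IgG, 109 and 0 in RiboLace and 85.4 and 84.5 in polysomes, and its RiboLace values rest on 4 and 0 reads. The gap between them was 4.72-fold in mean polysome density. After summing, the order was different: Psma7 was highest at a mean of 271 and Psma5 lowest at 101, so the place of Psma2 and Psma3 in the ring depends on how isoforms are counted. The other alpha genes (Psma1, Psma4, Psma5, Psma6 and Psma7) lay between 134 and 207 on the chosen transcript in the polysome libraries.

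The 3 catalytic beta genes were close to each other in polysomes, with means of 315 to 335 and a highest over lowest ratio of 1.06. Psmb7, which carries the trypsin-like site, had 269, 324 and 192 in the SMN immunoprecipitates, 226 in IgG, 200.5 and 305 in RiboLace and 339 and 331 in polysomes. Psmb6, with the caspase-like site, had 232, 272 and 205 in the SMN immunoprecipitates, 223 in IgG, 321 and 319 in RiboLace and 311 and 319.6 in polysomes. Psmb5, with the chymotrypsin-like site, had 337, 359 and 354 in the SMN immunoprecipitates, 262 in IgG, 210.3 and 351 in RiboLace and 335 and 306 in polysomes. The similarity held for the chosen transcripts only: summed, Psmb5 averaged 158, Psmb7 256 and Psmb6 318. All 3 genes also have processed pseudogenes that took reads in the same table. In polysome replicates 1 and 2, Psmb5-ps held 77 and 92 reads, Psmb6-ps2 67 and 94, Psmb6-ps 7 and 13 and Psmb7-ps2 31 and 27, beside 443 and 558 on Psmb5 itself, so the levels of the parent genes are uncertain.

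Of the 4 non-catalytic beta genes, Psmb1, listed with 1 transcript, had the highest polysome density of any member on the chosen transcripts. Its values were 390.2, 425 and 320.0 in the SMN immunoprecipitates, 288 in IgG, 318 and 527 in RiboLace and 471 and 487 in polysomes. Psmb3 was the lowest of the 4 in polysomes and had 258, 182 and 340.3 in the SMN immunoprecipitates, 274 in IgG, 237 and 288 in RiboLace and 201 and 195 in polysomes. For Psmb3 the 3 SMN values averaged 260.0 ± 79.1 (SD, n = 3), while the polysome values were 201 and 195. Psmb2 and Psmb4 lay between 236 and 299 in polysomes. With all transcripts summed, Psmb1 averaged 237 in polysomes, below Psmb2 at 265, Psmb4 at 310 and the catalytic Psmb6 at 318. Psmb3 was again the lowest of the 4, at 161.

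Subunits that replace the constitutive ones in special cells were at or near the floor, with 1 exception. Psmb8 and Psmb9 encode catalytic subunits of the immunoproteasome, which interferon induces. On its chosen transcript Psmb8 had 0, 0 and 1 reads in the SMN immunoprecipitates, 0 in IgG, 1 and 0 in RiboLace and 3 and 5 in polysomes. Psmb9 had 0, 0 and 1 reads in the SMN immunoprecipitates, 2 in IgG, 0 and 0 in RiboLace and 4 and 8 in polysomes. Summed over all transcripts, the polysome reads were 11 and 16 for Psmb8 and 8 and 14 for Psmb9. The thymus-specific Psmb11 had 1, 0 and 0 reads in the SMN immunoprecipitates, 0 in IgG, 1 and 0 in RiboLace and 2 and 0 in polysomes, and the testis-type alpha gene Psma8 had 1 read in each polysome library and 0 elsewhere. Taken as 3 counts per library, the limit that a count of 0 allows was 12.6 to 22.5 CPM in the SMN immunoprecipitates, 14.5 in IgG and 62.7 and 76.2 in RiboLace, so only the polysome libraries set a close limit on these genes. Psmb10, the remaining immunoproteasome subunit, was different: it had 3, 8 and 11 reads in the SMN immunoprecipitates, 3 in IgG, 0 and 3 in RiboLace and 149 and 212 in polysomes. In CPM of coding-gene reads this was 21.7, 60.0 and 46.3 in the SMN immunoprecipitates, 14.5 in IgG, 0 and 76.2 in RiboLace and 89.7 and 92.4 in polysomes. In polysomes its density of 109 and 112 exceeded that of Psma3, at 85.4 and 84.5, but Psmb10 is listed with 1 transcript and Psma3 with 9. On the summed scale Psmb10, with its reads unchanged, had 54.1 and 55.2, against 221 and 226 for Psma3. Microglia markers, 5 genes, summed to 122 to 240 CPM in the SMN immunoprecipitates, 102 in IgG, 228.6 to 229.9 in RiboLace and 243 to 262 in polysomes, and their part in the Psmb10 level was not tested. These floors cover counting error only.

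In the base of the regulatory particle, the 6 ATPase genes spanned a 2.49-fold range of mean polysome density. Psmc6, the highest, had 68.0, 199 and 104 in the SMN immunoprecipitates, 91.0 in IgG, 322 and 174 in RiboLace and 229 and 231 in polysomes. Its SMN values were thus scattered, with replicate 2 above replicates 1 and 3. Psmc4, the lowest, had 86.3, 65.7 and 83.7 in the SMN immunoprecipitates, 73.1 in IgG, 99.8 and 60.6 in RiboLace and 94.3 and 90.5 in polysomes. With all transcripts summed, Psmc4, with 6 listed transcripts, averaged 151 in polysomes and Psmc6, with 1, averaged 114. Psmc3 was then the highest ATPase gene at 210 and Psmc1 the lowest at 110. Of the 3 non-ATPase base genes, the scaffold Psmd2 was highest with 141, 85.3 and 126 in the SMN immunoprecipitates, 135 in IgG, 130.3 and 121 in RiboLace and 122 and 131 in polysomes. The ubiquitin receptor Psmd4 was lowest with 58.8, 27.1 and 76.0 in the SMN immunoprecipitates, 48.1 in IgG, 94.4 and 115 in RiboLace and 75.6 and 72.8 in polysomes. Summing all transcripts turned this order round, since Psmd4, with 8 listed transcripts, then averaged 207 in polysomes and Psmd2, with 6, averaged 151.

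In the lid, Psmd7 was the highest of 8 genes and Psmd11 the lowest. Psmd7, the inactive partner of the deubiquitinase, had 142, 225 and 131 in the SMN immunoprecipitates, 155 in IgG, 281 and 263 in RiboLace and 293 and 297 in polysomes. Psmd11 had 57.0, 17.7 and 39.8 in the SMN immunoprecipitates, 26.7 in IgG, 49.4 and 0 in RiboLace and 33.7 and 40.2 in polysomes, from 0 to 12 reads outside polysomes. Their 7.98-fold gap in mean polysome density came with 1 listed transcript for Psmd7 and 15 for Psmd11, and over the summed transcripts the whole lid spanned 2.03-fold. Of the base assembly chaperones, Psmd5 had 57.3, 54.5 and 55.5 in the SMN immunoprecipitates, 44.7 in IgG, 96.6 and 33.5 in RiboLace and 45.7 and 45.4 in polysomes. Psmd9 had 43.3, 56.1 and 69.2 in the SMN immunoprecipitates, 28.9 in IgG, 62.5 and 0 in RiboLace and 59.4 and 59.9 in polysomes. Psmd10 had 10.4, 43.1 and 24.2 in the SMN immunoprecipitates, 20.9 in IgG, 0 and 36.5 in RiboLace and 38.0 and 29.4 in polysomes; these rest on 0 to 4 reads outside polysomes.

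Core genes had the higher footprint density in every library. On the chosen transcripts, the mean over the 14 constitutive core genes was 242, 215 and 237 in the SMN immunoprecipitates, 219 in IgG, 218 and 224 in RiboLace and 256 and 248 in polysomes. For the 17 regulatory genes it was 96.3, 91.8 and 94.5 in the SMN immunoprecipitates, 88.0 in IgG, 125 and 109.6 in RiboLace and 139.6 and 137 in polysomes. The core over regulatory ratio was 2.51, 2.34 and 2.51 in the SMN immunoprecipitates, 2.49 in IgG, 1.74 and 2.04 in RiboLace and 1.83 and 1.82 in polysomes. With all transcripts summed the ratio was 1.83, 1.78 and 1.81 in the SMN immunoprecipitates, 1.91 in IgG, 1.51 and 1.53 in RiboLace and 1.51 and 1.51 in polysomes. On both scales each immunoprecipitate, IgG included, lay above every RiboLace and polysome library. Core genes are also listed with fewer transcripts (median 3.5, against 5 for regulatory genes) and have shorter coding regions (median 744 nt, against 1257 nt).

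**Figure D2:**
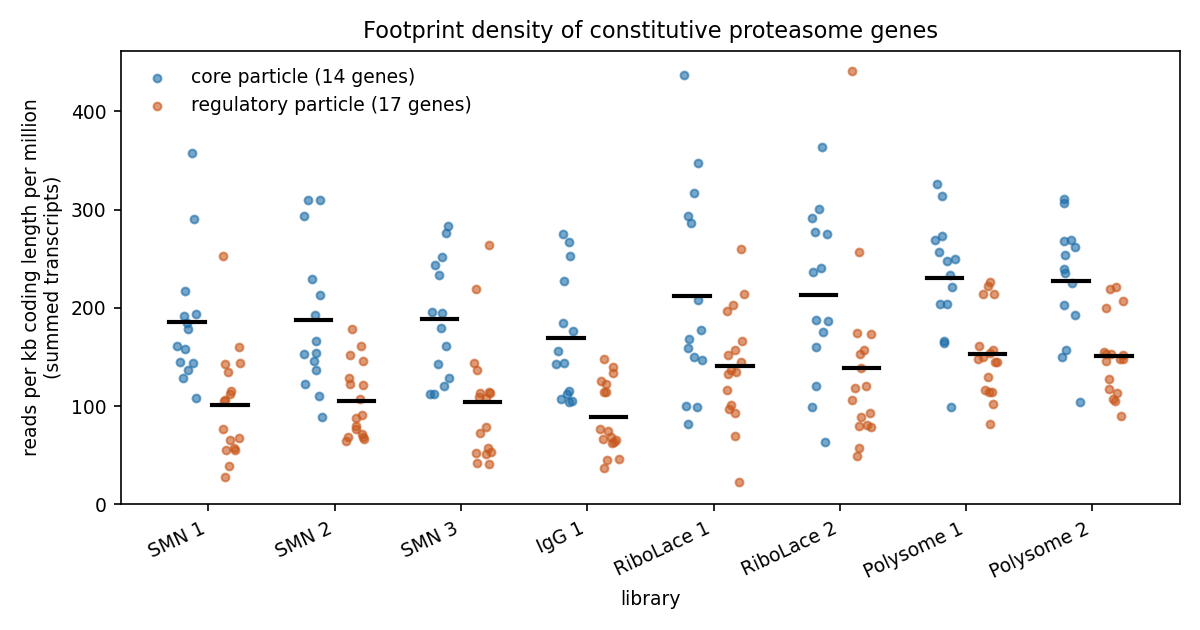
Footprint density with all transcripts summed (scaled reads per kilobase of coding length) of each constitutive core gene (blue, 14 genes) and regulatory particle gene (orange, 17 genes) in the 8 libraries; each point is a gene and each black line the mean. The core mean lies above the regulatory mean in every library, at 185 against 101 in SMN replicate 1 and 231 against 153 in polysome replicate 1.

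As a share of reads, core members held 52.3%, 51.9% and 52.2% of core and regulatory reads in the SMN immunoprecipitates, 51.6% in IgG, 44.5% and 48.5% in RiboLace and 46.3% and 46.0% in polysomes. Exact (Clopper-Pearson) 95% intervals were 48.5 to 56.2, 47.7 to 56.0 and 49.3 to 55.2 in the SMN immunoprecipitates and 48.3 to 54.9 in IgG. They were 38.2 to 51.0 and 41.2 to 55.7 in RiboLace and 45.3 to 47.3 and 45.2 to 46.9 in polysomes. The SMN mean of 52.1% ± 0.229 (SD, n = 3) was within the IgG interval, so no difference between the antibodies could be detected. All 3 SMN libraries lay above both polysome libraries, with intervals that did not touch those of polysomes, whereas the RiboLace intervals included the polysome values. Over the summed coding transcripts the shares were lower, and each immunoprecipitate again lay above every RiboLace and polysome library, at 43.4%, 45.7% and 44.0% in the SMN immunoprecipitates, 45.5% in IgG, 38.2% and 39.2% in RiboLace and 39.7% and 39.5% in polysomes. The immunoprecipitates and the polysome libraries differ in genotype as well as in protocol, and these cannot be told apart. The IgG library has the genotype and protocol of the SMN libraries.

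Members with a single listed transcript do not depend on the choice of isoform. The 6 constitutive ones are Psma2, Psmb1 and Psmb5 of the core and Psmc1, Psmc6 and Psmd7 of the regulatory particle, a set chosen after the isoform pattern was seen. Psmb10, Psmb11 and Psma8 also have 1 listed transcript and were left out as immuno-, thymo- and testis-type genes. Their core share was 65.0% in SMN replicate 1 (interval 57.0 to 72.4), 55.7% in replicate 2 (48.4 to 62.8) and 63.5% in replicate 3 (57.4 to 69.2). It was 56.1% in IgG (49.3 to 62.7), 47.7% and 54.2% in RiboLace, and 51.2% (49.3 to 53.0) and 50.9% (49.3 to 52.5) in polysomes. SMN replicates 1 and 3 again lay clear of polysomes, but the intervals of SMN replicate 2 and of IgG included the polysome values. The density ratio over these 6 genes was 2.86, 1.91 and 2.69 in the SMN immunoprecipitates, 1.99 in IgG, 1.36 and 1.80 in RiboLace and 1.62 and 1.60 in polysomes.

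**Figure D3:**
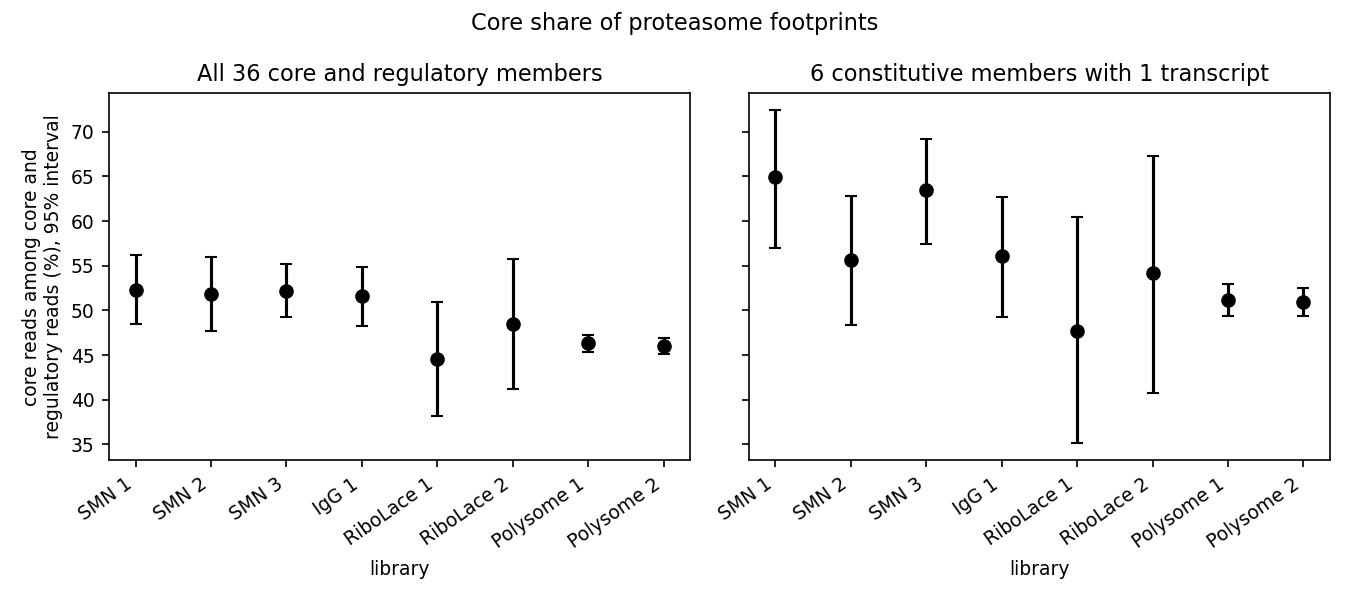
Core reads as a percent of core and regulatory reads in each library, over all 36 subunit genes (left) and over the 6 constitutive genes with 1 listed transcript (right); bars are exact 95% intervals for counting error. The immunoprecipitates, IgG included, lie at 51.6% to 52.3% on the left, above polysomes at 46.0% and 46.3%.

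The first comparison, SMN against IgG immunoprecipitates, addresses whether anti-SMN enriches footprints beyond unspecific pull-down. No proteasome member passed: 0 of 33 tested members were called by edgeR's quasi-likelihood test with Benjamini-Hochberg adjustment over 5517 genes, and 0 had an unadjusted p under 0.05. Over all genes tested, 148 of 5517 had an unadjusted p under 0.05. DESeq2 and limma-voom also called 0. The background was equally bare, since 0.0181% of tested genes, 1 of 5517, was called. The median log2 fold change was 0.11 over 15 core members and 0.29 over 17 regulatory members, beside 0.03 over all genes tested. The lid gene Psmd13 had 92.1, 95.2 and 101 CPM in the SMN immunoprecipitates, against 60.5 in IgG (log2 fold change 0.67, SE 0.67, edgeR adjusted p = 0.999). Psmb10 had 25.1, 69.2 and 52.8 CPM in the SMN immunoprecipitates, against 16.5 in IgG (log2 fold change 1.53, SE 1.38, edgeR adjusted p = 0.999). In both genes every SMN value was above IgG, but the IgG side rests on 1 library with 11 and 3 reads. Psmd14, the deubiquitinase, had 83.7, 51.9 and 57.6 CPM in the SMN immunoprecipitates, against 99.0 in IgG (log2 fold change -0.63, SE 0.61, edgeR adjusted p = 0.999). The alpha gene Psma6 had 134, 86.5 and 158 CPM in the SMN immunoprecipitates, against 187 in IgG (log2 fold change -0.53, SE 0.54, edgeR adjusted p = 0.999). In this pair every SMN value was below IgG. Over the fits without 1 SMN library, the log2 fold change was 0.60 to 0.68 for Psmd13, -0.85 to -0.56 for Psmd14 and -0.78 to -0.34 for Psma6. Psmb10 was given in only 1 such fit, at 1.80. The core median was 0.02 to 0.12 and the regulatory median 0.17 to 0.23 over these fits. A lone IgG library has no measured spread, so the fit lent it that of its SMN counterparts, and no difference of these sizes passed.

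The second comparison, RiboLace against polysomes, sets footprints enriched for active ribosomes beside polysome footprints within Smn-/- brains. Capture protocol and active translation cannot be told apart in it. None of 35 tested members was called, against a background of 2.24% called (1.31% higher and 0.925% lower) of 10807 genes. In edgeR, 4 of the 35 members had an unadjusted p under 0.05, beside 1575 of the 10807 genes. DESeq2 and limma-voom called 0 members as well. The median log2 fold change was -0.26 over 15 core and -0.20 over 17 regulatory members, close to the -0.29 of all genes tested. The ATPase gene Psmc1 had 64.9 and 224 CPM in RiboLace, against 319 and 292 in polysomes (log2 fold change -1.13, SE 0.38, edgeR adjusted p = 0.0892). Both RiboLace values, from 3 and 9 reads, were below polysomes, and they were far apart from each other. Another ATPase gene, Psmc2, had 151 and 174 CPM in RiboLace, against 322 and 291 in polysomes (log2 fold change -0.91, SE 0.36, edgeR adjusted p = 0.179). The largest positive values among members were those of the chaperone Psmd5 and of Psmd13, and neither separated the groups. Psmd5 had 151 and 49.9 CPM in RiboLace, against 72.5 and 70.9 in polysomes (log2 fold change 0.54, SE 0.54, edgeR adjusted p = 0.684). Psmd13 had 86.5 and 174 CPM in RiboLace, against 92.0 and 87.9 in polysomes (log2 fold change 0.51, SE 0.47, edgeR adjusted p = 0.651). Their signs rested on 1 RiboLace library each: without RiboLace replicate 1 the log2 fold change was -0.57 for Psmd5 and 0.91 for Psmd13, and without replicate 2 it was 1.02 and -0.12. For Psmc1 the log2 fold change was -1.07 without polysome replicate 1 and -1.14 without polysome replicate 2. In those fits 13 members and 1380 and 1384 genes were tested, and the lone polysome library was given the spread of the RiboLace libraries. The log2 fold change of Psmc1 was -0.49 without RiboLace replicate 1 and -2.29 without RiboLace replicate 2, so its size depended on the RiboLace library left out.

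The third comparison, SMN immunoprecipitates against polysomes, joins a difference in protocol to one in genotype. Here 3 of 33 tested members were called, 2 higher and 1 lower, against a background of 27.5% (16.4% higher and 11.1% lower) of 6484 genes. The count of members was below what that share of 33 would give, a description that was not tested. The median log2 fold change was 0.12 over 15 core members and -0.15 over 17 regulatory members, beside -0.02 over all genes. Psmd6, a lid subunit, fell: it had 125, 143 and 75.3 CPM in the SMN immunoprecipitates, against 203 and 192 in polysomes (log2 fold change -0.88, SE 0.26, edgeR adjusted p = 0.0224). Psmb3, a non-catalytic beta subunit, rose: it had 196, 134 and 251 CPM in the SMN immunoprecipitates, against 125 and 120.4 in polysomes (log2 fold change 0.74, SE 0.23, edgeR adjusted p = 0.0291). For both genes the groups did not overlap, but neither did they for uncalled members such as Psma2, Psmb2 and Psmd12. How often this held over all genes was not counted. Psmc3, a base ATPase, rose with 231, 98.1 and 256 CPM in the SMN immunoprecipitates, against 129 and 121 in polysomes (log2 fold change 0.72, SE 0.26, edgeR adjusted p = 0.0469). Here the groups overlapped, because SMN replicate 2 lay below both polysome libraries.

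The IgG library lay on the same side of polysomes as the SMN libraries for Psmd6 and Psmb3. Psmd6 had a density of 57.9 in IgG, near the SMN values of 86.6, 103 and 53.9 and below the polysome values of 172 and 164. For Psmb3 the IgG density of 274 lay within the SMN range and above both polysome values. For Psmc3 it was 94.7, within the SMN range of 62.1 to 161 and level with polysomes at 96.4 and 91.1. Against IgG, the SMN log2 fold changes of the 3 genes were 0.45 (SE 0.64) for Psmd6, -0.03 (SE 0.52) for Psmb3 and 0.41 (SE 0.54) for Psmc3, none of which passed. Psmd14 had 89.0, 53.5 and 60.2 CPM in the SMN immunoprecipitates, against 109 and 117 in polysomes and did not pass (log2 fold change -0.78, SE 0.29, edgeR adjusted p = 0.0579). Its groups did not overlap, as for the other uncalled members named above.

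The calls of the third comparison were lost when any of 4 of the 5 libraries was left out, and they changed with the scaling. Leaving out SMN replicate 1, SMN replicate 3 or either polysome library left 0 members called, while calls over all genes fell as well. Over the fits without 1 library the log2 fold change kept its direction, at -1.11 to -0.59 for Psmd6, 0.40 to 0.89 for Psmb3 and 0.37 to 0.96 for Psmc3. Leaving out SMN replicate 2, the library that stood apart in its isoform counts, gave 9 called members of 35, with Psma5, Psmb3 and Psmc3 higher and Psmb10, Psmc1, Psmc2, Psmc6, Psmd6 and Psmd7 lower, beside 30.4% of all genes tested in that fit. Scaling by library totals in place of TMM moved the median of all genes to -0.31, and then 0 members were higher and 8 lower, beside 34.1% of all genes called. The medians were then -0.17 for core and -0.45 for regulatory members. DESeq2 called 0 members, with adjusted p of 0.0656 for Psmd6, 0.0883 for Psmb3 and 0.246 for Psmc3, and limma-voom called Psmd6 alone.

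**Figure D4:**
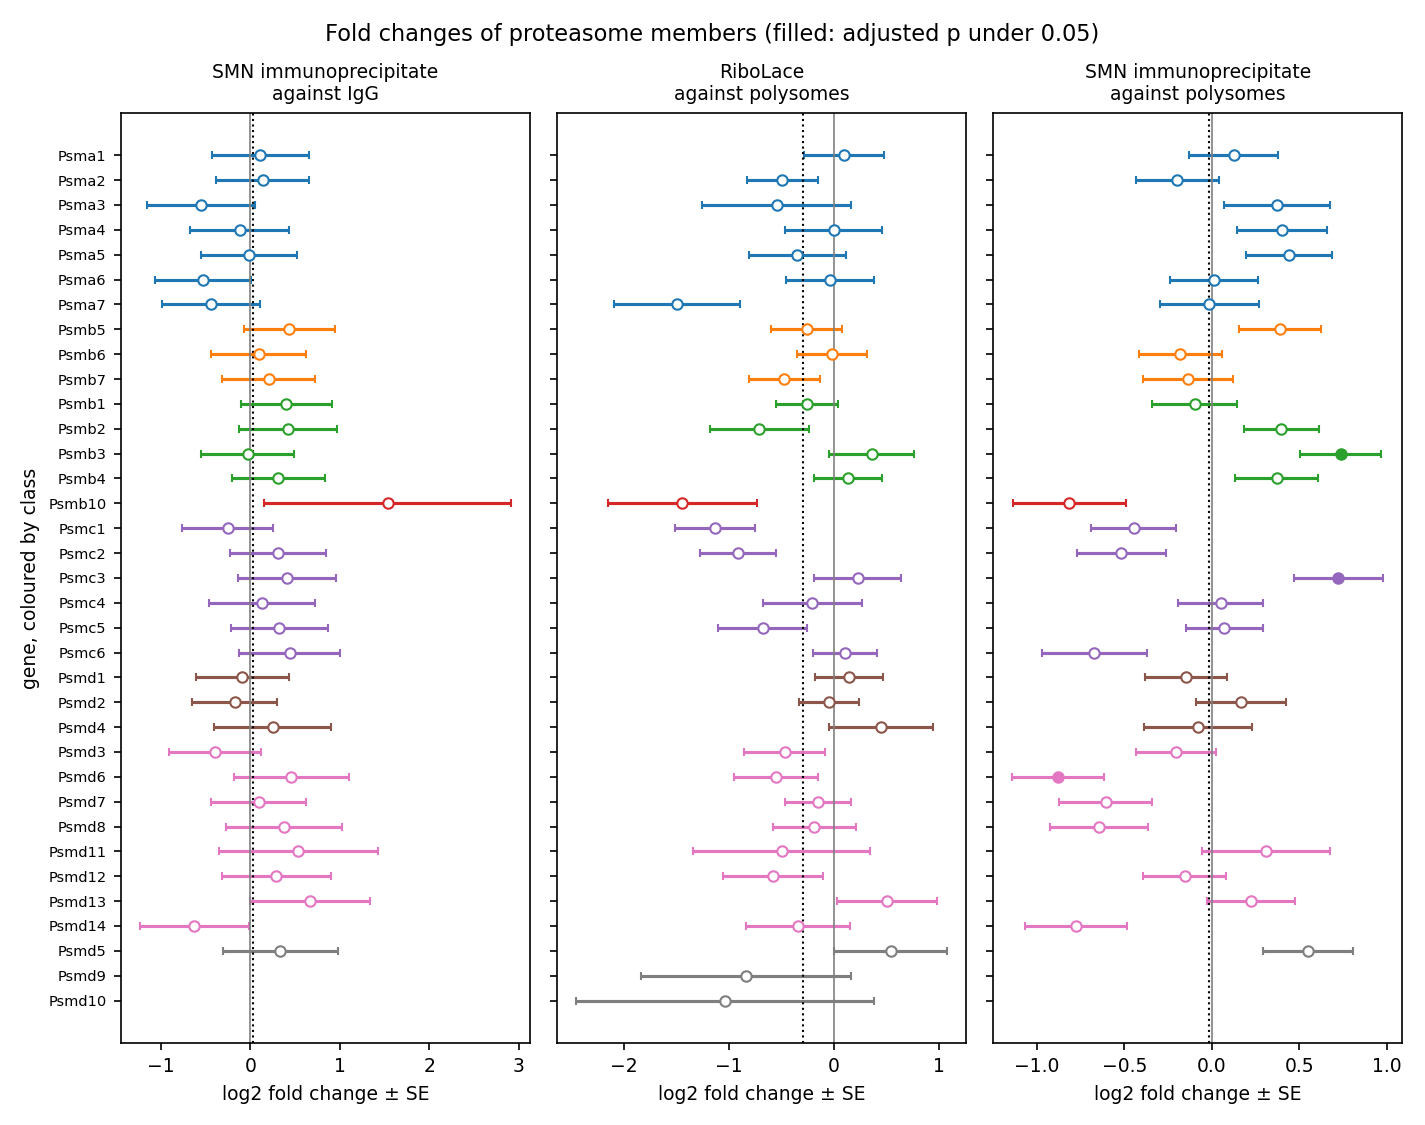
Fitted log2 fold change with its SE for each tested member in the 3 comparisons, coloured by class and running from the alpha ring (top) through beta ring, base and lid to the chaperones (bottom). Filled points passed the adjusted threshold and dotted lines mark the median of all genes tested; only Psmb3, Psmc3 and Psmd6, in SMN immunoprecipitate against polysomes, are filled.

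The median fold change over all genes moved with the number of listed transcripts. In SMN immunoprecipitate against polysomes, the median log2 fold change was -0.44 over all tested genes with 1 transcript, -0.12 with 2 to 4, 0.29 with 5 to 7 and 0.76 with 8 or more. The members' medians in the same order were -0.45 (7 genes), -0.06 (12), 0.17 (7) and 0.23 (7). In RiboLace against polysomes the medians of all genes were -0.72, -0.34, -0.06 and 0.17, and those of members were -0.26 (7 genes), -0.47 (13), -0.13 (8) and 0.14 (7). In SMN against IgG immunoprecipitates the order ran the other way, with 0.28, 0.06, -0.06 and -0.18 over all genes, and the members' medians were 0.40 (7 genes), 0.25 (12), -0.12 (7) and 0.25 (7). The members' medians thus followed the all-gene order throughout in SMN immunoprecipitate against polysomes, and only in part in the other comparisons. Over single members, fold change correlated with the logarithm of the number of listed transcripts at r = 0.38 in SMN immunoprecipitate against polysomes. The value was 0.33 in RiboLace against polysomes and -0.29 in SMN against IgG, each in the direction of the all-gene medians. Psmc3, one of the called members, has 10 listed transcripts and its fold change of 0.72 was close to the median of genes with 8 or more, whereas Psmd6, with 4, lay below the -0.12 of genes with 2 to 4. When only genes with 1 listed transcript were fitted, 1 of 7 members was called: Psmb5, named after its value was seen, rose with a log2 fold change of 0.78 (edgeR adjusted p = 0.00878), beside 24.0% of all genes called in that fit. Fitted with all tested genes, Psmb5 was not called (log2 fold change 0.39, SE 0.23, edgeR adjusted p = 0.219). Psmb3, Psmc3 and Psmd6 have several transcripts and could not enter that fit. The part of isoform counting in these fold changes was not tested further.

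**Figure D5:**
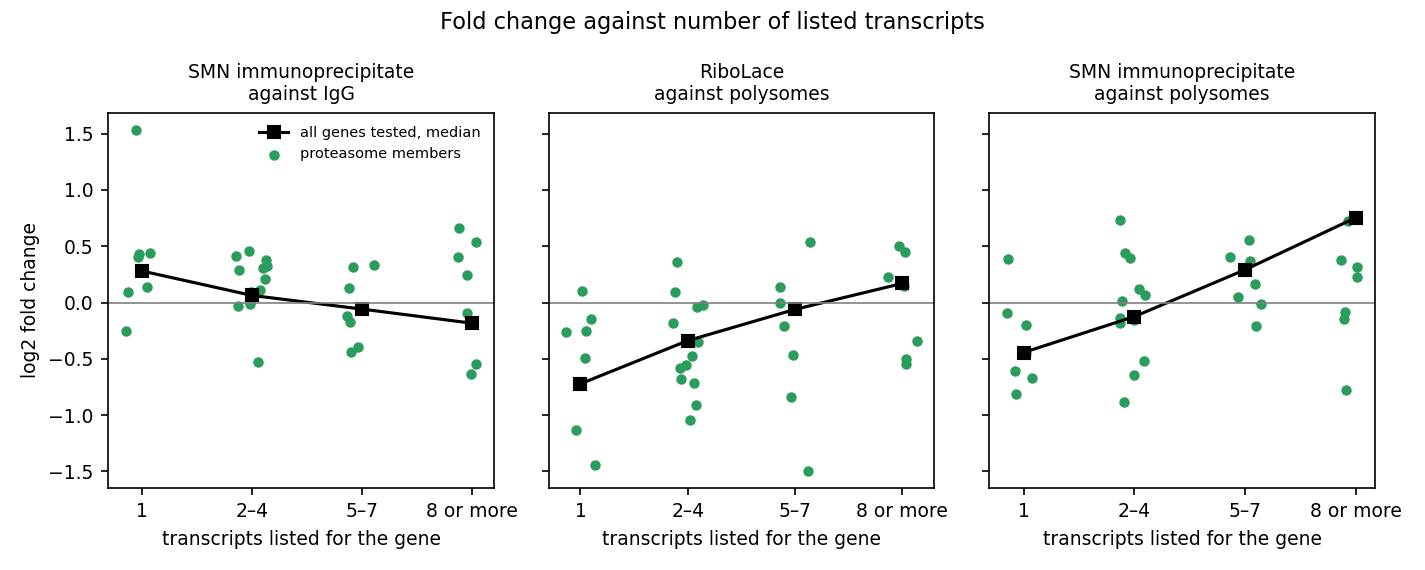
Log2 fold change of each tested proteasome member (green) and the median over all tested genes (black squares) by number of listed transcripts, in the 3 comparisons. The all-gene median runs from -0.44 to 0.76 in SMN immunoprecipitate against polysomes and from 0.28 to -0.18 in SMN against IgG.

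Other genes of the pathway, 26 in all, were taken as lists of assembly chaperones, further caps, bound enzymes, ubiquitin shuttles and transcription factors. In SMN against IgG immunoprecipitates 0 of 16 tested genes passed, with 0 at an unadjusted p under 0.05 and 0 called by DESeq2 or limma-voom, the smallest p being that of the shuttle Ubqln1 (log2 fold change 0.89, SE 0.60, edgeR adjusted p = 0.999). In RiboLace against polysomes 0 of 26 passed, and 2 had an unadjusted p under 0.05, beside 1575 of all 10807 genes tested. DESeq2 and limma-voom called 0 of the 26, and Ubqln2 had the smallest p (log2 fold change -0.51, SE 0.23, edgeR adjusted p = 0.259). In SMN immunoprecipitates against polysomes 2 of 17 were higher and 1 lower, beside the 27.5% of all genes called. DESeq2 called 2 and limma-voom 4, and their counts over all genes are given with the processing results below. Adrm1, a ubiquitin receptor of the regulatory particle outside the Psm naming, rose: it had 196, 89.1 and 161 CPM in the SMN immunoprecipitates, against 60.5 and 69.4 in polysomes (log2 fold change 1.20, SE 0.27, edgeR adjusted p = 0.00547). AI314180, listed elsewhere as Ecpas, a scaffold that binds the proteasome, also rose: it had 267, 152 and 181 CPM in the SMN immunoprecipitates, against 103 and 112 in polysomes (log2 fold change 0.86, SE 0.23, edgeR adjusted p = 0.0155). Zfand5, a zinc finger protein that activates the proteasome, fell: it had 89.0, 35.7 and 85.3 CPM in the SMN immunoprecipitates, against 154 and 137 in polysomes (log2 fold change -0.98, SE 0.30, edgeR adjusted p = 0.0249). The groups did not overlap for any of these genes, which was also true of uncalled members and was not counted over all genes. As for the members, none was called without SMN replicate 1, SMN replicate 3 or either polysome library (edgeR adjusted p = 0.0661 to 0.264 and log2 fold change 1.04 to 1.25 for Adrm1), and all 3 were called without SMN replicate 2. Adrm1 has 8 listed transcripts and AI314180 has 11, and with coding transcripts summed Adrm1 passed (adjusted p = 0.0272) and AI314180 (adjusted p = 0.175) and Zfand5 (adjusted p = 0.0653) did not. Zfand5 also missed the threshold in DESeq2 (adjusted p = 0.0533) and limma-voom (adjusted p = 0.0658), and AI314180 with library totals (adjusted p = 0.0663). Against IgG, the 2 regulatory subunits outside the Psm naming, Adrm1 and Shfm1, had a median SMN log2 fold change of 0.17. Shfm1 had 0.54 (SE 0.67), so Adrm1 lay below that median. The rise of Adrm1 over polysomes was thus not matched by a rise of that size over IgG.

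Proteasome genes are known to be induced together by the transcription factor Nfe2l1, which binds antioxidant response elements. Nfe2l1 itself had a log2 fold change of 0.72 in SMN immunoprecipitates against polysomes (SE 0.26, edgeR adjusted p = 0.0541). Against IgG, the 2 transcription factors tested, Nfe2l1 and Nfe2l2, had a median SMN log2 fold change of 0.19. Nfe2l2 had 0.57 there (SE 1.08), so Nfe2l1 lay below that median. The core of the antioxidant response element, TGACNNNGC, was searched on both strands of RefSeq promoter windows (250 bases before to 50 after the start, GRCm38.p6). It was found in 5 of 34 member promoters (32 genes matched by symbol), or 14.7%, beside 12.4% of all 32851 promoters. The 3 windows printed here are examples from 2 catalytic core genes and 1 base ATPase gene, the others being before Psmd9 and Psmd12, and each is 5′ to 3′ with the match in capitals. That of Psmb5 is chr14:54618023-54618052 on the minus strand, that of Psmb6 chr11:70525338-70525367 on the plus strand and that of Psmc6 chr14:45329586-45329615 on the minus strand.
Psmb5: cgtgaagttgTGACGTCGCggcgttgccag
Psmb6: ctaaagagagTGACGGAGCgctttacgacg
Psmc6: gagcaatgccTGACTTAGCtactggctggc
A match describes these letters only, and its share among members was near that of all promoters.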

How the data were processed

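Ribosome footprints of 8 libraries were analysed from 1 table of raw read counts per Ensembl transcript, which the authors deposited beside each transcript's coding length (per the file headers). The submitters' processing notes name the GRCm38.p4 build, the trimmer Trimmomatic 0.36, the aligner Bowtie2 2.2.6 and also SAMtools. The rule for counting a read that fits more than 1 isoform was not stated in those sources. The members and lists were chosen with earlier results of these data known. Each coding gene was represented by the coding transcript whose counts, scaled by library size, summed highest. The groups were compared with edgeR 4.0.16 (TMM over genes passing filterByExpr with a minimum count of 10, robust quasi-likelihood test, two-sided, Benjamini-Hochberg over all genes tested, threshold 0.05) in R 4.3.3, after tests on simulated data. DESeq2 1.42.0, limma-voom (limma 3.58.1), other filters, library totals, other transcript choices, summed transcripts and left-out libraries were alternatives. Members were named by rule: those called, the highest and lowest of each class by polysome density, all immuno-, thymo- and testis-type genes, and those with the smallest p in each comparison and direction. The labels call the replicates biological and do not say which animals they came from. Same-numbered libraries did not deviate together (correlation 0.037 for RiboLace and polysomes, 0.014 for SMN immunoprecipitates and polysomes), so replicate numbers were not treated as pairs.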

Additional observations from a re-analysis of the deposited data

How the results depend on the processing

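The 3 member calls in SMN immunoprecipitate against polysomes depended on the processing, and the cause was not tested. There, 0 members were called by DESeq2 and with summed coding transcripts, 1 by limma-voom, with all transcripts summed and among genes with 1 transcript only, 6 with no filter and 8 with library totals; leaving out 1 library gave 0 to 9. With replicate number as a block (SMN replicates 1 and 2 only) 0 were called and the regulatory median was -0.29, and in RiboLace against polysomes the block left 0 called. No block could be fitted for IgG. Counts over all genes there were 1062 higher and 719 lower by edgeR, 850 and 378 by DESeq2, 1023 and 372 by limma-voom, 636 and 1578 with library totals, 908 and 1215 with no filter, 681 and 434 with summed coding transcripts, 558 and 336 with all transcripts summed and 9 and 0 with the block. The core and regulatory medians were -0.17 and -0.45 with library totals and -0.32 and -0.69 at a minimum count of 50 (6 members each), and the regulatory one -0.32 with no filter; without 1 library the core ran from -0.0002 to 0.31 and the regulatory from -0.29 to -0.13. In RiboLace against polysomes, 0 to 1 members were called without 1 library. The core median there was -0.12 with all 8 libraries, -0.011 among genes with 1 transcript, -0.030 at a minimum of 50, -0.35 with no filter, -0.047 with all transcripts and -0.15 with coding transcripts summed, and -0.34 to -0.16 without 1 library. The regulatory median was 0.21 among genes with 1 transcript and 0.033 at a minimum of 50, and -0.51 to -0.016 without 1 library. In SMN against IgG the regulatory median was -0.15 among genes with 1 transcript (3 members), and at a minimum of 50 the core and regulatory medians were 0.32 and -0.25, from 1 member each. The core share with coding, then all, transcripts summed was 43.4% and 44.4%, 45.7% and 44.2%, and 44.0% and 44.3% in SMN replicates 1 to 3, 45.5% and 45.0% in IgG, 39.2% and 41.2% in RiboLace replicate 2, 39.7% and 41.0% in polysome replicate 1 and 39.5% and 40.9% in replicate 2, which had 45.1% without immuno-, thymo- and testis-type members. Of the other values compared, 110 for counts, medians and shares and 121 for single genes or ratios stayed within their limits or on their side of the threshold. The 54 counts, medians and shares that moved are those given above; of single genes and ratios, 29 lost their call, 5 gained one and 4 moved. Summing all transcripts and fitting genes with 1 transcript only were chosen after seeing the data. Depth limits RiboLace most, where single members hold 0 to 18 reads.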

Other observations

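Set against the mean of polysomes library by library, with no test, the IgG library had a median log2 ratio of -0.22 over core members and -0.50 over regulatory members, beside -0.30 over all genes. In SMN replicates 1, 2 and 3 the core medians were 0.01, -0.29 and 0.04 and the regulatory medians -0.39, -0.56 and -0.34. In each of these 4 libraries the core median was therefore above the regulatory one, and SMN replicate 2 lay below the other SMN replicates in both.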
